A study of Mus musculus with 2 samples.

Results

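The cytochrome P450 genes of families 1 to 4 are described here in mouse liver after injection of an oligonucleotide against miR-122. Members were all genes whose symbol began with Cyp, a family number from 1 to 4 and a subfamily letter, and which had a probe set annotated to that gene alone. This gave 56 of 18193 genes, measured by 69 probe sets. For a gene with several probe sets the one with the highest geometric mean signal over both arrays was used. Of the 56 members, 41 lay at or above a signal floor of 238, the 60th percentile of all probe sets without controls, and 15 lay under it. The 41 members were from 16 subfamilies.

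The groups were antagomir-122 and mm-antagomir-122, each measured as 1 pool of RNA from 3 livers on 1 Affymetrix array. An antagomir is a modified RNA strand coupled to cholesterol that silences a microRNA by pairing with it, and miR-122 is abundant in hepatocytes. The labels call mm-antagomir-122 a scrambled control. Both groups were given 80 mg/kg body weight per day on 3 days, and livers were taken 24 h after the last injection. The labels used here give no strain, sex or age, and miR-122 itself was not analysed here. A single array in each group leaves the replicate error unknown, and no p-value can be given. Differences are described by their size, with 1.5-fold as the threshold, and "higher" and "lower" describe the antagomir-122 pool relative to the mm-antagomir-122 pool.

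Cytochromes P450 are heme enzymes that insert an oxygen atom into their substrates, with electrons supplied by P450 reductase and cytochrome b5. Families 1 to 3 handle most drugs, pollutants and many steroids, and family 4 mainly hydroxylates the ends of fatty acids and eicosanoids. In liver many of these genes are controlled by ligand-activated factors. The aryl hydrocarbon receptor (AhR) acts on family 1, CAR and PXR act on the 2b, 2c and 3a subfamilies, and PPARα acts on 4a. Several mouse genes of the family are also expressed mainly in males or mainly in females under the control of growth hormone.

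Hepatocyte markers were at high signal on both arrays: all 10 measured members of a fixed list had signals of at least 7417.7 in the antagomir-122 pool and 7800.6 in the mm-antagomir-122 pool, as in the labelled tissue. The median log2 ratio of that list was -0.02. Immune cell markers differed more. All 13 Kupffer cell and macrophage markers were above 0 (median log2 ratio 0.39, summed signal 77939.7 in the antagomir-122 pool and 59494.6 in the mm-antagomir-122 pool). All 7 measured lymphocyte markers were also above 0 (median 0.67, sum 8602.2 in the antagomir-122 pool and 4984.6 in the mm-antagomir-122 pool), as were 7 of 8 neutrophil markers (median 1.09, sum 35963.7 in the antagomir-122 pool and 27064.8 in the mm-antagomir-122 pool). Most of that sum was Lcn2, which is also an acute phase gene. Without it, a choice made after seeing the data, the other 7 summed to 8581.2 in the antagomir-122 pool and 2891.6 in the mm-antagomir-122 pool. Mpo and Ltf of the neutrophil list, and Cd79a of the lymphocyte list, were under the floor in the mm-antagomir-122 pool (164.2, 197.8 and 207.5). With signals under the floor set to it, the neutrophil median was 0.69. The lymphocyte median stayed at 0.67, with a lowest value of 0.23. Under the floor in both pools, and left out above, were 2 neutrophil, 2 lymphocyte and 0 Kupffer cell and macrophage markers. The part of these cells in the values below was not tested, and in a pool of whole liver more cells of a type and more RNA per cell cannot be told apart. Pairs of probe sets for 1 gene, 3860 in all, differed with an SD of 0.28 per probe set on the log2 scale, or 1.21-fold. This does not include the spread between animals.

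Most members of the family had nearly the same signal in both pools. The median log2 ratio of the 41 members was -0.01, against 0.00 for all 10003 genes above the floor. There were 19 members above 0 and 22 below, and 31 (75.6%) lay within 1.2-fold of equal signal, against 62.5% of all genes. Of all genes 5034 lay above 0 and 4965 below. At least 1.5-fold higher in the antagomir-122 pool were 3 members, Cyp2d9, Cyp2c55 and Cyp2b10, against a background of 5.12% of all genes. At least 1.5-fold lower were 2 members, Cyp2r1 and Cyp2c39, against 2.62% of all genes. Together these were 5 of 41 members (12.2%), against 7.74% of all genes in either direction. This share was not tested.

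The members were bright as a group, and ratios of bright genes spread less. Bright genes also lay more often below 0 as deposited. Among the brightest 3335 genes 1347 were above 0 and 1988 below, and of the members among them 16 and 12. Of the 41 members, 28 were among the brightest 3335 of the 10003 genes, and of these 2 passed 1.5-fold upward and 0 downward, against 2.55% and 1.05% of the 3335 (3.6% in all). Of 7 members in the middle of the signal range 1 was higher and 1 lower, against 4.5% and 2.58% there (7.08% in all). Of the 6 dimmest 0 were higher and 1 lower, against 8.31% and 4.23% (12.5% in all). Both signals exceeded 16000 for 12 members: Cyp1a2, Cyp2a12, Cyp2c29, Cyp2c50, Cyp2c68, Cyp2c70, Cyp2d10, Cyp2d26, Cyp2e1, Cyp2f2, Cyp3a11 and Cyp3a25. These 12 had a median log2 ratio of 0.07, and the furthest from 0 was Cyp2f2, 1.13-fold higher. Among all 147 genes with both signals over 16000, 0 passed 1.5-fold (0% in either direction). Whether the scanner or MAS5 compresses ratios there was not tested. The other 29 members had a median of -0.02.

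**Figure D1:**
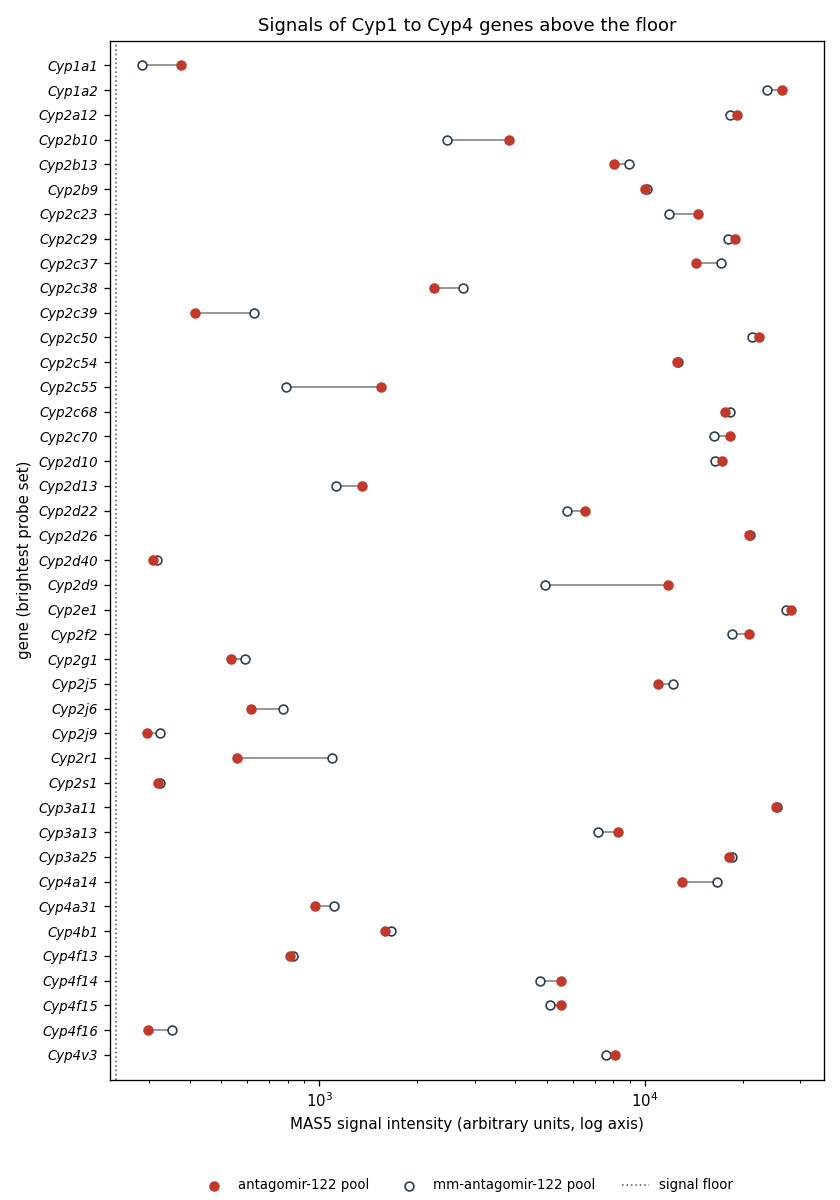
Signals of the 41 members above the floor, 1 row per gene ordered by subfamily, on a log axis of MAS5 signal intensity; filled points are the antagomir-122 pool, open points the mm-antagomir-122 pool, each 1 array, and the dotted line is the floor at 238. The longest lines join the points of Cyp2d9, Cyp2c55 and Cyp2r1, and for most genes at the right edge the points nearly touch.

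**Figure D2:**
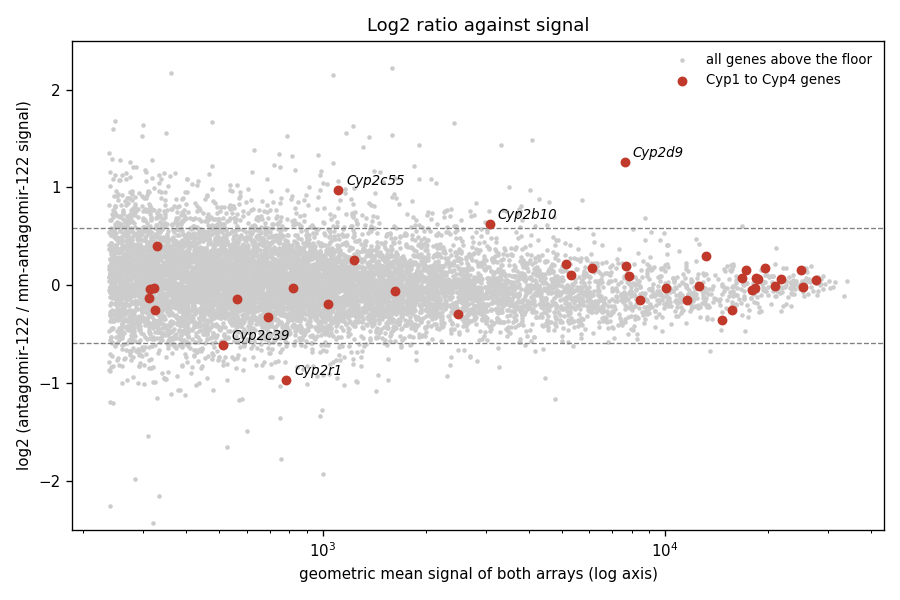
Log2 ratio of antagomir-122 over mm-antagomir-122 against the geometric mean signal of both arrays (log axis); grey points are the 10003 genes above the floor, red points the 41 members, dashed lines 1.5-fold, and 3 genes lie outside the axis limit of 2.5. The cloud narrows as signal rises, and Cyp2d9 is the highest red point at a log2 ratio of 1.26.

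The member furthest from equal signal was Cyp2d9, a testosterone 16α-hydroxylase known in mice as a male-biased liver enzyme. Its signal was 11790.2 in the antagomir-122 pool and 4919.2 in the mm-antagomir-122 pool. It was thus 2.40-fold higher (log2 1.26), and it was the only member past 2-fold. The value rests on 1 probe set with the suffix _a, which in Affymetrix naming marks probes that match several transcripts of the same gene. Apart from the suffix, the Cyp2d genes are close paralogs, so signal from relatives cannot be separated from that of Cyp2d9.

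The other Cyp2d genes lay close to 0. Cyp2d26 had signals of 20893.9 and 21033.9 in the antagomir-122 and mm-antagomir-122 pools, and Cyp2d10, next to Cyp2d9 on the chromosome, had 17239.2 and 16425.1. Cyp2d22, often described as the mouse counterpart of human CYP2D6, had log2 ratios of 0.18 and 0.42 on its 2 probe sets. Cyp2d13, a transcribed pseudogene in the RefSeq table, had 0.26 and 0.35. Cyp2d40 had a log2 ratio of -0.04 close to the floor. The median of the 6 measured Cyp2d genes was 0.13, and without Cyp2d9 the others ran from -0.04 to 0.26 on their brightest probe sets. Cyp2d12 (77.6 and 126.9) and Cyp2d34 (120 and 144.1) were under the floor in both pools.

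The promoters of Cyp2d9 and its neighbour Cyp2d10 are shown because the genes are close relatives with unlike ratios. They are RefSeq sequences of GRCm38.p6, from 250 bases before to 50 bases after the annotated start, at chr15:82452127-82452426 on the plus strand for Cyp2d9 and chr15:82407145-82407444 on the minus strand for Cyp2d10. Capitals mark matches to 5 motifs searched on both strands: the box TATAAA near many starts, the nuclear receptor half-site AGGTCA, the AhR core GCGTG, the forkhead site TGTTTAC and the STAT site TTCNNNGAA.
Cyp2d9: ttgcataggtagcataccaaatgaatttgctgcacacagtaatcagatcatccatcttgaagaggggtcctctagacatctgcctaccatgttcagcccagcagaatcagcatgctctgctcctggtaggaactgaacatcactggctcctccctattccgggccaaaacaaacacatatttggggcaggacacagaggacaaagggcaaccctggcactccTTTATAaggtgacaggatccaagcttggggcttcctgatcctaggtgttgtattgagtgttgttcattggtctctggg
Cyp2d10: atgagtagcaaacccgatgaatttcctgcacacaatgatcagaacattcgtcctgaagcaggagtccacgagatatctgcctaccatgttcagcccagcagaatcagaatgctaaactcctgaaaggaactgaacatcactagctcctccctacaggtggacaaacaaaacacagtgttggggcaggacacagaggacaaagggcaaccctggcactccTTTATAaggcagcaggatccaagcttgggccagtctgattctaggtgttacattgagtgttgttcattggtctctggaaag
In a global alignment 252 of 296 aligned bases were identical (82.9% with gaps counted). Each held 1 match, TTTATA, the reverse complement of TATAAA, beginning 28 bases before the start in Cyp2d9 and 31 in Cyp2d10. That motif was in 13.6% of 32851 promoters of the same length and in 14 of the 34 measured members with a promoter sequence. None of the other 4 motifs was in either window, which says only that these letters are not there. Of these, TGTTTAC was in 3.65% and TTCNNNGAA in 8.30% of all promoters, and in 4 and 2 of the 34 members.

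Cyp2c55, an epoxygenase that is known to be induced through CAR and PXR, was next by distance from 0 among the higher members. Its level was 1550.9 in the antagomir-122 pool and 789.9 in the mm-antagomir-122 pool, a 1.96-fold difference (log2 0.97) on 1 probe set without a suffix. Cyp2c39, which is known to hydroxylate retinoic acid, went the other way: 414.5 in the antagomir-122 pool and 631.3 in the mm-antagomir-122 pool, or 1.52-fold lower (log2 -0.61). It was the nearest of the 5 genes to the threshold and was no longer past it with a pseudocount of 37.8 (-0.56) or when scaled on hybridization controls (-0.33). Among the 36 members that did not pass 1.5-fold, none exceeded the 1.32-fold of Cyp1a1.

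The Cyp2c subfamily, which includes the main arachidonic acid epoxygenases of mouse liver, had 10 members above the floor and the widest range, from -0.61 to 0.97. Of these, 5 were above 0 and 5 below, with a median of 0.03. Cyp2c29 had signals of 18863.8 and 17965.9 in the antagomir-122 and mm-antagomir-122 pools, and Cyp2c50 had 22332.6 and 21306.7, each with a log2 ratio of 0.07. Cyp2c54 and Cyp2c68 had log2 ratios of -0.01 and -0.05. Cyp2c70, the mouse enzyme that makes muricholic acids, had 18217.7 in the antagomir-122 pool and 16295.6 in the mm-antagomir-122 pool (log2 0.16). Cyp2c37 (14365.5 and 17147) and Cyp2c38 (2250.1 and 2761.2) were lower by log2 ratios of -0.26 and -0.30, both close to the spread between probe sets. Cyp2c23, known in rat as a kidney epoxygenase, was 1.23-fold higher on a probe set with the suffix _s (log2 0.30). Cyp2c65 was under the floor at 60 and 44.9.

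The promoter of Cyp2c55, at chr19:39006769-39007068 on the plus strand of GRCm38.p6, is shown as that of the higher member furthest from 0 on a probe set without a suffix, with matches to the same 5 motifs in capitals.
Cyp2c55: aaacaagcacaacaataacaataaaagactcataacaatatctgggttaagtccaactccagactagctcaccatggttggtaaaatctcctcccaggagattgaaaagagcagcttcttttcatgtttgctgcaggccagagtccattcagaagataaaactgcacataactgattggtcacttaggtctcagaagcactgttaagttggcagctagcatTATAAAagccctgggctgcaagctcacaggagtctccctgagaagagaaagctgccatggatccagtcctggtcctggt
It held 1 match, TATAAA, beginning 29 bases before the start.

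Cyp2b10, the P450 gene most used as a read-out of CAR activity, was 1.54-fold higher. Its brightest probe set read 3818.7 in the antagomir-122 pool and 2474.2 in the mm-antagomir-122 pool. Its other probe sets gave 3270.7 and 2029.7, and 3041.6 and 1852.8, in the same order. All 3 were higher in the antagomir-122 pool, with log2 ratios of 0.63, 0.69 and 0.72. They read the same transcripts on the same arrays, and 2 of the 3 carry the suffix _s, so their agreement covers measurement spread only. The other 4 members past 1.5-fold rest on 1 probe set each above the floor.

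Its relatives Cyp2b9 and Cyp2b13, known as female-biased genes of mouse liver, were nearly level. Cyp2b9 had 9974.4 in the antagomir-122 pool and 10146.3 in the mm-antagomir-122 pool (log2 -0.02). Cyp2b13 had 8050.3 and 8918.4 (log2 -0.15), so these pairs of signals nearly coincide. Cyp2b19, known from skin, was under the floor at 107 and 139.6.

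The promoters of Cyp2b10 and Cyp2b9, at chr7:25897408-25897707 and chr7:26173159-26173458, both on the plus strand of GRCm38.p6, are shown as those of the changed and the least changed gene of the subfamily.
Cyp2b10: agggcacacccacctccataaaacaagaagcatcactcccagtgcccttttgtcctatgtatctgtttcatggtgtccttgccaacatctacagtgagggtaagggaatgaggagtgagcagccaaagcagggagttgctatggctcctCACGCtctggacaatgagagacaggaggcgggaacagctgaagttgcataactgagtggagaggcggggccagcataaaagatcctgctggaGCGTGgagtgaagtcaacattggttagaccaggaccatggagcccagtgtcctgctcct
Cyp2b9: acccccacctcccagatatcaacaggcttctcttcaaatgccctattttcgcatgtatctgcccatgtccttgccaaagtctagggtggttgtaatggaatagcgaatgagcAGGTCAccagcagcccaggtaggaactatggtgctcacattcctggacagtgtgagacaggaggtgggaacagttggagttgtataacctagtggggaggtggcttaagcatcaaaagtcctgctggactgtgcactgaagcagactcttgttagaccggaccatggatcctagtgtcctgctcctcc
In Cyp2b10 the 2 matches were to GCGTG, at 101 bases before the start as its reverse complement CACGC and at 9 bases before it. That motif was in 32.4% of all promoters and in 8 of the 34 members with a sequence. In Cyp2b9 the match was AGGTCA, beginning 138 bases before the start, a motif found in 16.3% of all promoters and in 10 of the 34. The windows of Cyp2b10 and Cyp2b9 were 71.7% identical, while those of Cyp2b9 and Cyp2b13 were 99.3% identical. The known phenobarbital-responsive element of Cyp2b10 lies further upstream and is not in this window.

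Cyp2r1, an enzyme that makes 25-hydroxyvitamin D, was the member furthest below 0. Its signal was 559.7 in the antagomir-122 pool and 1098.4 in the mm-antagomir-122 pool, or 1.96-fold lower (log2 -0.97). It rested on 1 probe set without a suffix, and across the scalings its log2 ratio ran from -0.99 to -0.70.

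**Figure D3:**
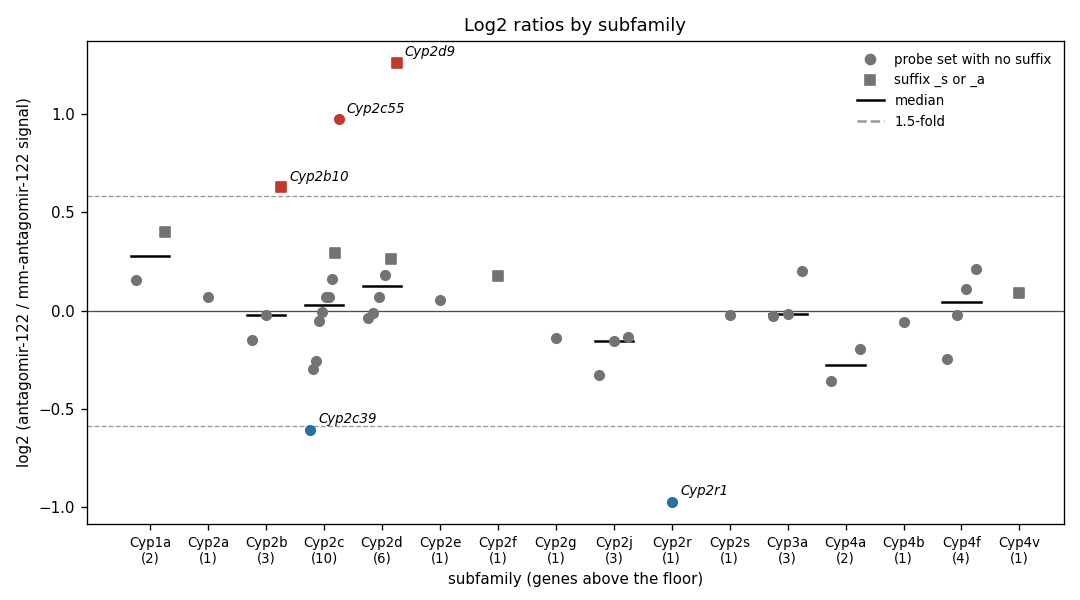
Log2 ratio of antagomir-122 over mm-antagomir-122 for each of the 41 members above the floor, by subfamily with the number of genes in brackets; squares are brightest probe sets with a suffix, bars are medians of subfamilies with over 1 gene, dashed lines are 1.5-fold, red is at least 1.5-fold higher and blue at least 1.5-fold lower. The 5 coloured genes lie in the 2b, 2c, 2d and 2r subfamilies, each beside uncoloured relatives except Cyp2r1, and all 7 squares lie above 0.

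The family 1 genes, the classic targets of AhR, were both above 0. Cyp1a2, the constitutive liver enzyme that clears caffeine, had 26339.6 in the antagomir-122 pool and 23679.7 in the mm-antagomir-122 pool (log2 0.15). Cyp1a1 had 377.7 and 286.5 in the same order, 1.32-fold higher (log2 0.40) on a probe set with the suffix _a. That is a small difference near the floor. Cyp1b1, expressed mainly outside hepatocytes, was under the floor on 3 probe sets, the brightest at 162.5 and 154.8.

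In the 2a subfamily Cyp2a12, a steroid hydroxylase, had 19160.6 in the antagomir-122 pool and 18290.9 in the mm-antagomir-122 pool (log2 0.07). Cyp2a5, the coumarin 7-hydroxylase, and Cyp2a4, a female-biased steroid 15α-hydroxylase, share 1 probe set and so were outside the members. That probe set read 27216.6 and 26707.5 (log2 0.03). Cyp2e1, which oxidises ethanol and acetaminophen, had 28135.3 in the antagomir-122 pool and 27077.5 in the mm-antagomir-122 pool, and Cyp2f2, which activates naphthalene, had 20814.1 and 18441.3. All of these lay within 1.13-fold.

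Among the smaller branches of family 2, Cyp2g1, known from olfactory tissue, had a log2 ratio of -0.14 and Cyp2s1 had -0.02. The Cyp2j genes, epoxygenases of arachidonic acid, were all slightly below 0 on their brightest probe sets, with a median of -0.15 over 3 genes. Cyp2j5 had 10996.8 in the antagomir-122 pool and 12223.8 in the mm-antagomir-122 pool, but its second probe set turned the sign (2327.1 and 2236.7, log2 0.06). Cyp2j6 had 617.5 and 774.1 on one probe set and 705.3 and 592.6 on the other, log2 ratios of -0.33 and 0.25, so its direction is not settled. Cyp2j9 had 296.4 and 325.5, close to the floor. Scaled on the hybridization controls, 2 of the 3 Cyp2j genes lay above 0.

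The 3a subfamily, which includes the main drug-oxidising P450 of liver, was nearly level. Cyp3a11, the leading PXR target of mouse liver, had 25161.5 in the antagomir-122 pool and 25488.4 in the mm-antagomir-122 pool (log2 -0.02), and Cyp3a25 had 18170.6 and 18535 (log2 -0.03). Cyp3a13 was 1.15-fold higher at 8254.5 and 7178.4. With loess correction all 3 lay above 0. Cyp3a41a and Cyp3a41b, known as female-biased, share 1 probe set, which read 10976.1 in the antagomir-122 pool and 13052.6 in the mm-antagomir-122 pool (log2 -0.25). Cyp3a44 was just under the floor at 197.8 and 215.4, and Cyp3a16, a fetal and female-biased gene, was at 11.5 and 80.3.

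The 4a subfamily, the fatty acid ω-hydroxylases controlled by PPARα, was lower on every probe set above the floor as deposited. Cyp4a14 had 12990.7 in the antagomir-122 pool and 16651.7 in the mm-antagomir-122 pool, 1.28-fold lower (log2 -0.36). Cyp4a31 had 968 and 1108.1 (log2 -0.20). The probe set that Cyp4a10 shares with Cyp4a31 had 11102.4 and 15444.9, 1.39-fold lower (log2 -0.48). None of these reached 1.5-fold, and scaled on hybridization controls Cyp4a31 turned to 0.08 while Cyp4a14 stayed below 0 at -0.08. Cyp4a12a, a male-biased arachidonic acid ω-hydroxylase, was under the floor at 227.4 in the antagomir-122 pool and 181.6 in the mm-antagomir-122 pool.

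The other family 4 genes above the floor stayed within 0.28 (log2), the spread of probe sets, on its brightest ones. Cyp4f14, which hydroxylates leukotriene B4, had 5536.3 in the antagomir-122 pool and 4773.6 in the mm-antagomir-122 pool (log2 0.21). Cyp4f15, Cyp4f13 and Cyp4f16 had log2 ratios of 0.11, -0.02 and -0.25, and a probe set shared by Cyp4f16 and Cyp4f37 had 0.18. Cyp4b1, known from lung, had 1592.6 and 1657.6. Cyp4v3, whose human counterpart CYP4V2 is mutated in Bietti crystalline dystrophy, gave opposite signs on its 2 probe sets. Its _s probe set had 8111.7 in the antagomir-122 pool and 7614.8 in the mm-antagomir-122 pool (log2 0.09), and the one without a suffix had 3348.4 and 4368.9 (log2 -0.38).

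Probe sets limited the readings in 3 ways. Of the 41 members, 6 had a further probe set above the floor, and in 3 of these, Cyp2j5, Cyp2j6 and Cyp4v3, the ratios lay on both sides of 0. The brightest probe set carried a suffix for 7 members, Cyp1a1, Cyp2b10, Cyp2c23, Cyp2d9, Cyp2d13, Cyp2f2 and Cyp4v3. All 7 lay above 0 as deposited, with quantile normalization, with loess correction and with hybridization control scaling, with a median of 0.30 as deposited. With the mean over probe sets 6 did, and Cyp4v3 had -0.15. The 34 members without a suffix had a median of -0.02 as deposited, with 12 above 0. Of these 34, 17 lay above 0 with quantile normalization, 18 with loess correction and 29 with hybridization control scaling. Finally, 4 probe sets were annotated to more than 1 gene of the family and 6 genes were read only there. Of the 114 genes of the rule in the RefSeq table of GRCm38.p6, those with no probe set named here were not analysed.

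Position in the genome, which the choice of members did not use, follows the subfamilies, since most of these genes lie in tandem clusters. The 6 members above the floor on chromosome 4, of the 2j, 4a and 4b subfamilies, lay below 0 as deposited (log2 -0.36 to -0.06), with quantile normalization and with loess correction. Scaled on hybridization controls, 2 of the 6 did, and with the mean over probe sets the values of Cyp2j5 and Cyp2j6 were -0.05 and -0.04. The changed genes were not next to one another. The nearest protein-coding P450 neighbours of Cyp2c39 in the RefSeq order, Cyp2c29 and Cyp2c38, had log2 ratios of 0.07 and -0.30, and those of Cyp2b10, Cyp2s1 and Cyp2b13, had -0.02 and -0.15.

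For the 15 members under the floor only signals are given, because a dim signal cannot be told from background without detection calls. Their brightest probe sets ran from 11.5 to 227.4 in the antagomir-122 pool and from 13.4 to 215.4 in the mm-antagomir-122 pool. Cyp4x1 (106 and 13.4), Cyp2j13 (90.7 and 25.9) and Cyp4f18 (66.2 and 149.3) had the most unequal pairs beside Cyp3a16, and no fold is given for any of them.

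P450 genes of the higher families, which make and clear bile acids, sterols and retinoids, were further from 0 than those of families 1 to 4. Of 10 above the floor, 4 passed 1.5-fold upward and 0 downward, against the same backgrounds of 5.12% and 2.62%. Cyp17a1, the steroid 17α-hydroxylase, had 3090.8 in the antagomir-122 pool and 1497.1 in the mm-antagomir-122 pool (log2 1.05). Cyp26a1, which clears retinoic acid, had 2306.9 and 1501.3 (log2 0.62). The other changed genes of this group were the bile acid enzymes Cyp8b1 and Cyp7a1, at 1.16 and 0.62. The median absolute log2 ratio was 0.56 over these 10 genes and 0.15 over the 41 members, a description of these 2 arrays without a test. It was 0.20 over the 29 members without both signals above 16000, and none of the 10 genes was that bright. The lowest signals among the 10 were close to the floor, 228.2 in the antagomir-122 pool and 332.5 in the mm-antagomir-122 pool.

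Genes that supply P450 enzymes with electrons, and genes that make and break down heme, went both ways. As deposited 5 of 6 electron partners and 7 of 11 heme genes lay below 0, and with loess correction 3 of 6 and 7 of 11 did. None of the 6 electron partners passed 1.5-fold, against 7.74% of all genes in either direction (median log2 -0.17). Por, P450 reductase, was not analysed here. Cyb5a, cytochrome b5, had 23764 in the antagomir-122 pool and 23787.5 in the mm-antagomir-122 pool, and Pgrmc2, a heme-binding membrane protein, had 1747.9 and 2336.5 (log2 -0.42). Of the 11 heme genes 0 passed 1.5-fold, against the same 7.74% of all genes, with a median of -0.09. Alas1, the rate-limiting enzyme of heme synthesis and itself responsive to CAR and PXR, had 23956.9 and 18457.8 (log2 0.38), while Cpox, a later enzyme of the pathway, had 2123.6 and 2960.6 (log2 -0.48). Scaled on hybridization controls both medians turned positive, to 0.11 and 0.18.

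The receptors and factors that control these genes had a median of 0.03 over 28 genes as deposited, with 15 above 0. Of the 28, 2 were at least 1.5-fold higher and 0 lower, against 5.12% and 2.62% of all genes. Scaled on hybridization controls 26 of the 28 lay above 0 (median 0.30). With the mean over probe sets 11 did (median -0.09). Onecut1 (HNF6), a hepatocyte factor, had 554 in the antagomir-122 pool and 249.3 in the mm-antagomir-122 pool (log2 1.15), the second close to the floor. Stat5a, a transducer of growth hormone, was 1.53-fold higher at 574.7 and 374.9 on a probe set with the suffix _a. Foxa1, a forkhead factor, was 1.48-fold higher (log2 0.56), and Dbp, a clock-controlled factor, had -0.49. For the ligand-activated receptors of family 1 to 4 genes, named after their values were seen, the log2 ratios were 0.41 for Ahr, 0.36 for Nr1i2 (PXR), -0.25 for Nr1i3 (CAR) and 0.02 for Ppara.

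Other genes known to respond to the same receptors also went both ways as deposited. Of 19 CAR and PXR responsive genes outside the P450 family, 0 passed 1.5-fold in either direction, against 7.74% of all genes. Of the 19, 10 lay above 0, with a range from -0.52 to 0.54 and a median of 0.01. Scaled on hybridization controls 18 of the 19 lay above 0 (median 0.28). Gstm3, a glutathione transferase, had 10991.9 in the antagomir-122 pool and 7535.4 in the mm-antagomir-122 pool (log2 0.54), and Ces2a, a carboxylesterase, had 11722.3 and 8789.1 (log2 0.42). Gsta2, also a glutathione transferase, had 4189.7 and 6001.6 (log2 -0.52). The 4 AhR responsive genes split evenly about 0 as deposited, with Ugdh at 0.23 and Selenbp1 at -0.22. Scaled on hybridization controls all 4 lay above 0. Of 23 PPARα responsive genes 16 lay below 0 (median -0.23) and 1, Vnn1, was at least 1.5-fold lower, against 2.62% of all genes. With loess correction 14 of the 23 lay below 0 (median -0.17). Scaled on hybridization controls the median turned to 0.04, and 7 of the 23 lay below 0.

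Genes with a sex bias in mouse liver were set beside the sex-biased P450 genes. Of 11 female-biased genes above the floor 3 were at least 1.5-fold lower, against 2.62% of all genes. These were Hao2, a hydroxy acid oxidase (1053 in the antagomir-122 pool and 1988.3 in the mm-antagomir-122 pool), Tox, a nuclear factor (384.3 and 678.3), and Abcd2, a peroxisomal transporter (861.2 and 1467.1). The median of the 11 was -0.22, and 5 lay above 0. Scaled on hybridization controls it was 0.05, with 6 above 0. Of 8 male-biased genes with a single-gene probe set only 3 were above the floor, too few to describe such genes as a class. Of these 1 was at least 1.5-fold higher, against 5.12% of all genes: the transporter gene Slco1a1 (469.5 and 256.1, log2 0.87). Its second signal was close to the floor. Among the P450 genes described above as sex-biased, male-biased Cyp2d9 had a log2 ratio of 1.26 and male-biased Cyp4a12a was under the floor. Of the female-biased ones, Cyp2b9 had -0.02, Cyp2b13 had -0.15, the probe set of Cyp3a41a and Cyp3a41b had -0.25, that of Cyp2a4 and Cyp2a5 had 0.03, and Cyp3a16 was under the floor. The sex of the animals is not given in the labels used here.

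**Figure D4:**
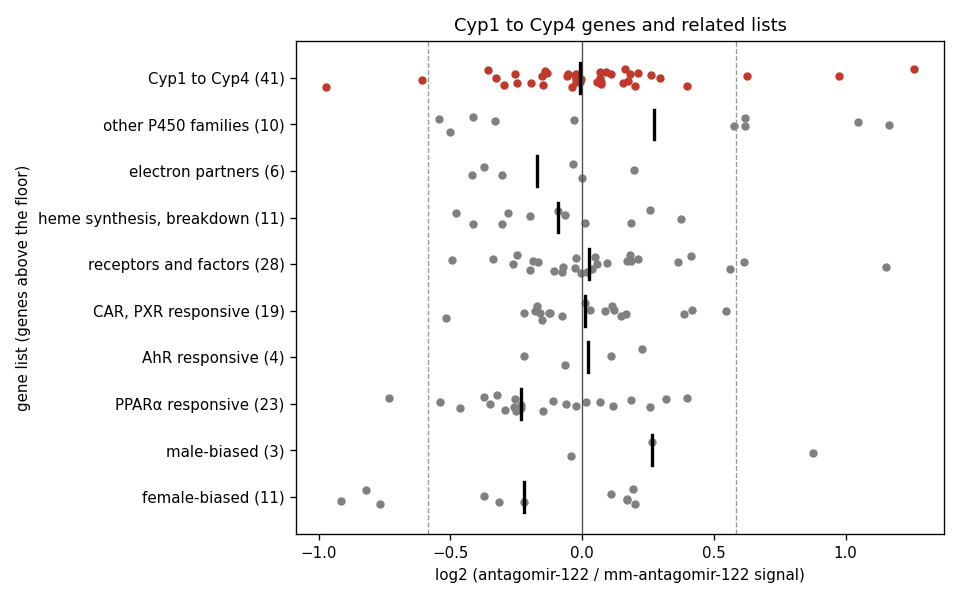
Log2 ratios of antagomir-122 over mm-antagomir-122 for the 41 members (red) and for genes of 9 related lists (grey), each point 1 gene above the floor with the number in brackets, vertical bars medians and dashed lines 1.5-fold; vertical scatter within a row has no meaning. The members crowd around 0 with a median of -0.01, while the 10 P450 genes of other families split into a group below 0 and a group near or past 1.5-fold.

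Directions depend on how the arrays are set level. Bacterial and phage hybridization controls were lower on the antagomir-122 array, with a median log2 ratio of -0.27 over 18 probe sets of a few transcripts. Scaling on them adds 0.27 to every log2 ratio, which gave 36 members above 0 and 5 below, with 4 at least 1.5-fold higher (Cyp1a1 besides the 3 named) and 1 lower (Cyp2r1). Under that scaling 16.9% of all genes above the floor were higher and 0.63% lower, and the median of all genes was 0.28, close to the 0.26 of the members. With quantile normalization 24 members lay above 0 and 17 below, and with loess correction 25 and 16. The 5 members past 1.5-fold were the same under both.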

How the data were processed

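Liver RNA pooled from 3 mice per group was measured on 1 single-colour array per group, 2 arrays in all. The deposited values are intensities on a linear scale, 1 per probe set. The submitters' processing notes name MAS5, and its version is not given in the sources used here. Their 2% trimmed mean was 500.0 on both arrays, so the authors had scaled them to a common target. Signals reached 34476.9 in the antagomir-122 pool and 34506.1 in the mm-antagomir-122 pool, and no detection calls were used. The precision is limited by the number of arrays.

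Probe sets were named by the array platform's annotation, and symbols were compared through Entrez numbers with RefSeq for GRCm38.p6 (34741 of 34945 single-gene probe sets found, 0 symbols changed). Of the 45101 probe sets, 932 had several genes, 9160 had none and 64 were controls. Ratios are log2 of antagomir-122 over mm-antagomir-122 intensity with no pseudocount, on the brightest probe set of each gene, for genes whose mean log2 signal reached the 60th percentile of probe sets without controls (10003 genes). Members and lists were chosen with earlier results of these data known, and list members were written from general knowledge. Members past 1.5-fold, the brightest and next most changed of each subfamily and those with disagreeing probe sets were named with values, and from each other list at most the 4 most changed genes above the floor. Genes named outside this rule were chosen after their values were seen. Promoter sequences are RefSeq's for GRCm38.p6, matched by symbol for 34 of the 41 members. The calculation was tested on simulated data with less spread than that between probe sets here, and with planted changes larger than 1.5-fold. Such a test checks the arithmetic and not how far a 1.5-fold difference in these arrays can be trusted. Python 3.11.15, pandas 2.3.3, statsmodels 0.14.6 and Biopython 1.88 were used.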

Additional observations from a re-analysis of the deposited data

How the results depend on the processing

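The counts of 3 higher and 2 lower members past 1.5-fold kept the same genes with median centring, quantile normalization, loess correction, a floor at the 40th percentile, the mean over probe sets, signals under the floor set to it, and members above 16000 left out. Without suffixed probe sets 2 were higher, since Cyp2d9 has no other. At a threshold of 2-fold 1 was higher and 0 lower. With no floor 5 were higher and 5 lower of 56, against 15.2% and 9.44% of all genes, the added members being dim. Lower counts were 1 with a floor at the 80th percentile, 1 with a pseudocount of 37.8 and 1 scaled on hybridization controls, each by loss of Cyp2c39. The median of the members ran from -0.02 to 0.07 (log2) over the alternatives other than hybridization control scaling, which adds 0.27 to every ratio and gave 0.26. That scaling took the median of Cyp4a to -0.0021 and turned the median of Cyp2j to 0.12. Single members moved most in Cyp2j6, at -0.04 with the mean over probe sets, and Cyp4v3, at -0.38 without suffixed probe sets. The 5 members past 1.5-fold kept their sign under each alternative that gave a value. No paired analysis was possible because there was 1 array per group. No replicate could be left out for the same reason. Signals under the floor cannot be told from background, and compression of those over 16000 was not tested.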

Other observations

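Many P450 genes differ in level between zones of the liver lobule. Of 11 pericentral hepatocyte markers outside the P450 family 0 passed 1.5-fold, against 7.74% of all genes in either direction (median log2 -0.02). Slc1a2 was at 0.36, Glul (glutamine synthetase) at -0.31 and Lect2 at -0.27. Of 12 periportal markers 9 lay below 0 as deposited (median -0.15). With loess correction 8 did (median -0.11), and 5 did when scaled on hybridization controls (median 0.13). The 1 single-gene probe set of Ass1, of the urea cycle, had a log2 ratio of -1.12 (245.3 in the antagomir-122 pool and 531.4 in the mm-antagomir-122 pool, the first close to the floor). It was far dimmer than Cps1 of the same cycle (25198.1 and 24808.1), and whether it reads the main Ass1 transcript was not tested. Hal, histidine ammonia lyase, was at -0.44, and G6pc was at 0.58. Of 27 acute phase and inflammatory genes 16 lay above 0 (median 0.04), and 14 had both signals above 16000, where 0 of 147 genes passed 1.5-fold. Among all 27, 0 were at least 1.5-fold higher and 1 lower, against 5.12% and 2.62% of all genes. That gene was Orm2, an acute phase glycoprotein (10728.2 in the antagomir-122 pool and 17089.7 in the mm-antagomir-122 pool), and Saa1 had 28363.5 and 28356.2. Of 9 endothelial markers 1 passed 1.5-fold, against 7.74% of all genes in either direction. It was Tek, at 386.2 in the antagomir-122 pool and 640.6 in the mm-antagomir-122 pool. The list median was 0.06.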
